A study of Homo sapiens with 12 samples.

Results

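The 37 genes described here are ATF4 with genes reported as its targets, and cytosolic aminoacyl-tRNA synthetases. They comprised 5 transcription regulators, 7 feedback, stress and secreted effectors, 10 enzymes of amino acid and one-carbon metabolism, the tRNA exporter XPOT and 14 synthetases. Members were taken by symbol, through GENCODE 29 names of the Ensembl identifiers, and all 37 were found among the 58051 genes of the deposited count table. They were read from sequencing of polyadenylated RNA of MV4-11, a line from human acute myeloid leukaemia that has a fusion of KMT2A and carries FLT3 with an internal tandem duplication. The 4 groups of 3 libraries were cells exposed for 6 h to palbociclib, BSJ-03-123 or YKL-06-102, each at 200 nM, or to vehicle, 0.1% DMSO. Palbociclib is a catalytic inhibitor of CDK4 and CDK6. The labels describe BSJ-03-123 and YKL-06-102 as phthalimide conjugates specific for CDK6 and name no structural difference between them. All groups were the same line in serum-supplemented RPMI medium, sampled at the same single dose and time, so the values describe 1 cell line.

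ATF4 is the transcription factor of the integrated stress response. Kinases that sense amino acid shortage, endoplasmic reticulum stress, viral RNA or haem shortage phosphorylate the translation factor eIF2. This lowers bulk protein synthesis while ribosomes reach the main reading frame of the ATF4 messenger RNA more often, so ATF4 protein can change with no change in its messenger RNA. ATF4 pairs with C/EBP family partners at composite C/EBP-ATF response elements. Its targets supply amino acids, tRNA synthetases and one-carbon units, and also encode feedback factors such as TRIB3 and PPP1R15A. Aminoacyl-tRNA synthetases attach each amino acid to its tRNA.

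The core letters of the composite element, TGATGNAA, were searched on both strands of the members' RefSeq promoter windows (GRCh38.p14), which run from 250 bases before to 50 bases after a gene's start. Windows were matched for 29 of the 37 members, with several starts for some. They were not matched for PSPH, SHMT2, ALDH1L2, PYCR1, NUPR1, LARS, VARS and YARS. A match was found in 10 of the 29 members (34.5%), against 1217 of all 27305 genes in the promoter table (4.46%) and 268 of the 10198 tested genes with a window (2.63%). The longer-specified letters TGATGCAA, a subset of these matches, were found in 8 members (27.6%), 1.08% of all genes in the table and 0.755% of the tested genes with a window. The members had 44 windows for 29 genes, and the whole promoter table had 35116 for 27305 genes. The 10 matches are shown as a sequence feature that some members have and that their choice did not use directly. Many members were listed as reported targets of ATF4, which acts at this element. The higher share is therefore a description of the chosen genes, with no test. Each is printed 5′ to 3′ on the gene's strand with 10 flanking bases on each side and the 8 matched bases in capitals.
ASNS: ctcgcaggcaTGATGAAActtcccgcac
CEBPG: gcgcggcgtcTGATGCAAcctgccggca
CHAC1: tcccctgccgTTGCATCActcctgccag
AARS: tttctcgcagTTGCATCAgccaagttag
CARS: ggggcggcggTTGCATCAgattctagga
GARS: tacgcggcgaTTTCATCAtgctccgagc
IARS: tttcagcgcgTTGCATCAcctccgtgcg
MARS: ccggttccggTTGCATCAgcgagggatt
NARS: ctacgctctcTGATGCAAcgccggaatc
TARS: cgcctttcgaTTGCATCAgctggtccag

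Positions are those of the 28 printed bases, and distances run from the first matched base to the start. The ASNS stretch was chr7:97872459-97872486 on the minus strand, with the match 68 bases before the start, and holds the letters of the nutrient-sensing element known from that promoter. The CEBPG stretch was chr19:33374061-33374088, plus strand, with the match 42 bases before the start. That of CHAC1 was chr15:40953252-40953279, plus strand, with the match 209 bases before the start. These 3 matches lay upstream of the transcribed sequence of the RefSeq start. Among the synthetases, the AARS stretch was chr16:70289676-70289703, minus strand, with the match 187 bases before the start. GARS (stretch chr7:30594835-30594862, plus strand) and IARS (stretch chr9:92293693-92293720, minus strand) had matches 33 and 13 bases before their starts. In the stretches of CARS (chr11:3057408-3057435, minus strand) and MARS (chr12:57488054-57488081, plus strand) the match spanned the start itself. The matches of TARS (stretch chr5:33440957-33440984, plus strand) and NARS (stretch chr18:57621805-57621832, minus strand) began 3 and 15 bases into the transcript. Within the searched windows, synthetase matches thus sat close to a RefSeq start in 6 of 7 genes, AARS being the exception. A match lying in the windows of several starts was measured from the nearest start, so this closeness is partly set by the search. A match of letters does not show that a factor binds there, and its absence says only that the letters are not in the window.

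Library totals ranged from 18764307 to 25539858 counts, and 14214 genes passed the filter on low counts. Replicates of a group differed beyond sampling noise, DMSO replicate 2 most: its chi-square per degree of freedom against DMSO replicates 1 and 3 was 5.71 and 8.63, and every other pair of a group had 2.91 or less. All 10 myeloid and MV4-11 markers were detected in every group, and their summed level ran from 2258 to 2278 CPM (counts scaled to a common library size with TMM factors) in DMSO, from 2403 to 2453 CPM with palbociclib and BSJ-03-123 and from 2721 to 2738 CPM with YKL-06-102. That the myeloid sum moved with the compounds was measured beside the results below, and its part in them was not tested. Sums over the lymphoid, erythroid and fibroblast lists stayed at or under 1.76 CPM in every library, with haemoglobin genes HBA1 and HBB and the T cell gene CD3E at 0 in DMSO. The epithelial list summed to between 16.2 and 22.1 CPM, carried by KRT8 and KRT18, with EPCAM and KRT19 at 0 in DMSO. Whether replicates came from separate cultures is not stated in the labels, so the p-values reflect only the spread of these libraries, and this spread may be technical.

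In vehicle-treated cells most of the programme was already expressed, and the members spanned more than 3 orders of magnitude per length. On the scale of mean CPM per kilobase of merged exons, ATF5 stood first at 81.9 ± 5.81 (SD, n = 3). This rank is uncertain, since exons of ATF5 overlap those of the more abundant NUP62 and the strand setting of the counting is not given. AARS at 69.95 ± 2.82, NARS at 67.3 ± 1.53 and ATF4 at 66.9 ± 2.02 followed within each other's spread. The other synthetases lay between 59.7 for IARS and 14.0 for HARS, except CARS at 3.83. Of the enzymes, the mitochondrial serine hydroxymethyltransferase SHMT2 reached 55.3 and the serine synthesis enzyme PSAT1 40.3, whereas the transsulfuration enzymes CTH and CBS stood at 0.566 and 0.113. Of the effectors, PPP1R15A stood highest at 17.7. TRIB3 was at 4.66, DDIT4 at 4.40, SESN2 at 2.44, CHAC1 at 0.543 and ADM2 at 0.457. NUPR1 at 0.0532 and STC2, a secreted glycoprotein, at 0.0248 closed the order. STC2 had 2 to 8 counts per library over all 12 libraries (0.105 to 0.383 CPM) and was not tested.

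**Figure D1:**
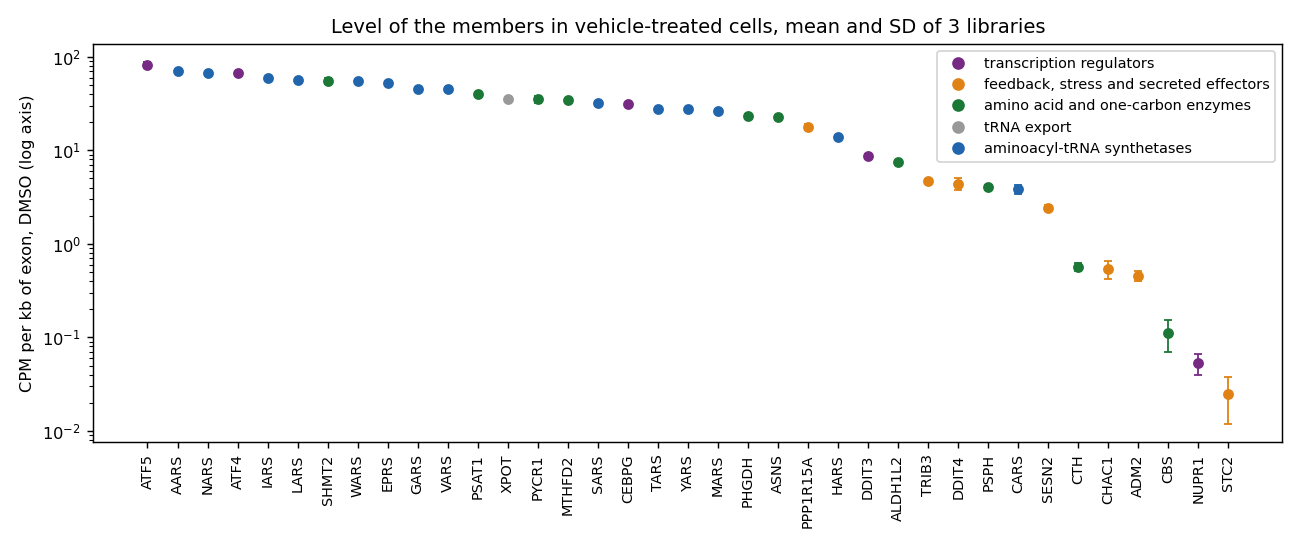
Level of each of the 37 members in DMSO-treated cells, as mean CPM per kilobase of merged exons on a log axis, with SD over 3 libraries as bars and colour giving the member's role. Synthetases (blue) lie between AARS at 69.95 and HARS at 14.0, with CARS at 3.83, and members of other roles lie among them. The points fall from ATF5 at 81.9, whose counts are uncertain because its exons overlap those of NUP62, to STC2 at 0.0248.

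Members did not move as a block against DMSO: some rose, others fell, and most synthetases were not called. A gene was called at a Benjamini-Hochberg adjusted p under 0.05 in edgeR's quasi-likelihood test over all tested genes. With palbociclib 5 of the 36 tested members rose and 8 fell (36.1%), where 33.3% of all tested genes were called, 15.6% higher and 17.6% lower. With BSJ-03-123 4 rose and 7 fell (30.6%), against 28.1% of all genes, 12.4% higher and 15.7% lower. With YKL-06-102 5 rose and 6 fell (30.6%), against 36.9% of all genes, 15.6% higher and 21.3% lower. One of these 5, NUPR1, passed the filter on low counts only through its YKL-06-102 libraries, so it had to differ there; without it 4 of 35 rose and 6 fell (28.6%). The members' shares were near those of all genes in each comparison. Libraries of palbociclib, BSJ-03-123 and YKL-06-102 did not overlap DMSO for 41.7%, 37.2% and 44.7% of all tested genes. Non-overlap of a gene, named below, is therefore common in these data. The members' median log2 fold changes were -0.024, -0.011 and -0.018, and the medians of all tested genes were 0.014, 0.0075 and -0.017. The 3 comparisons share the DMSO libraries, so their values are given side by side and not as independent results. Scaling by library totals alone turned the members' split to 8 higher and 6 lower with palbociclib, 7 and 5 with BSJ-03-123, and 8 and 6 with YKL-06-102 (7 and 6 without NUPR1), where 37.6%, 32.5% and 37.3% of all genes were called.

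**Figure D2:**
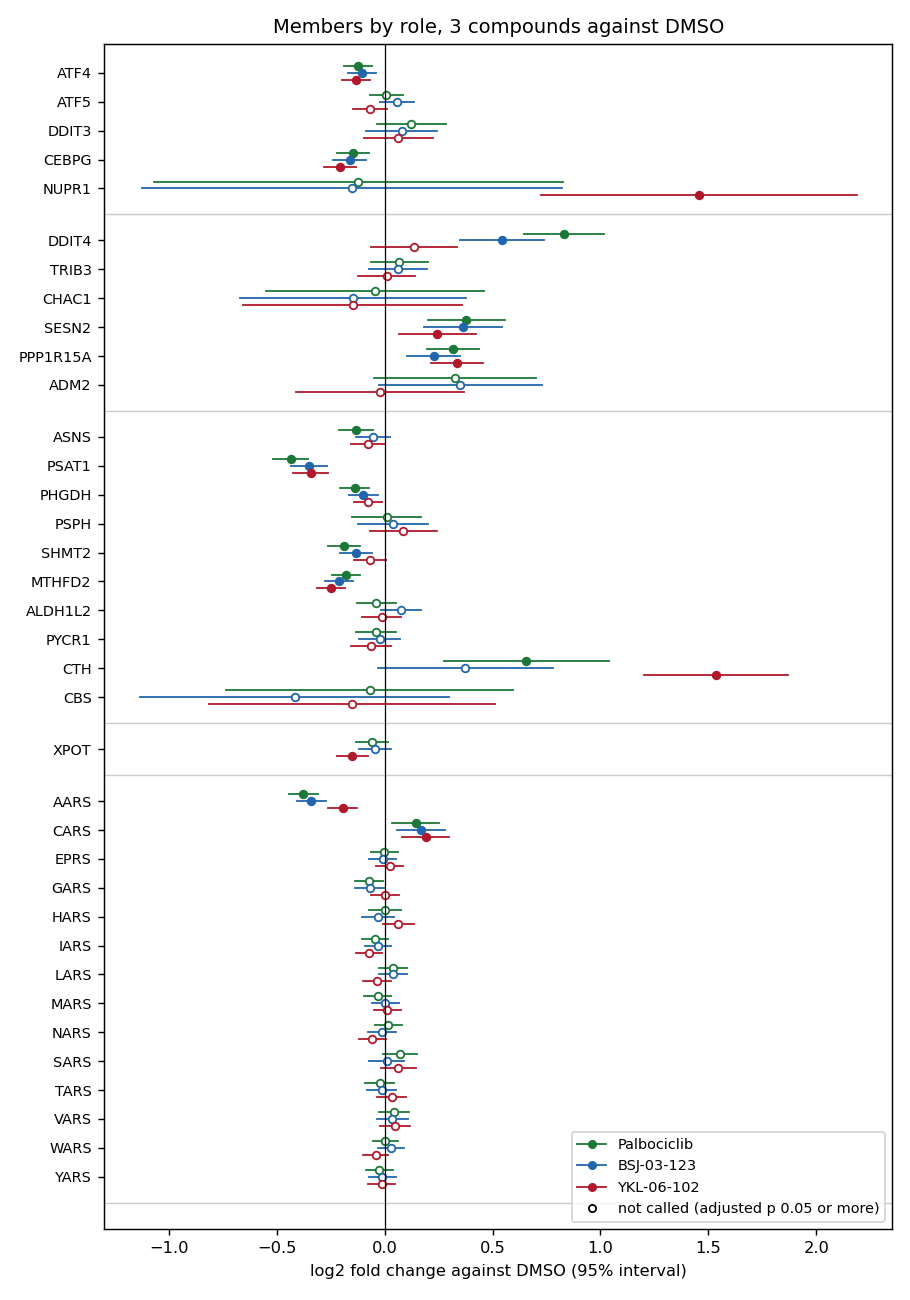
Log2 fold change against DMSO of the 36 tested members, ordered by role, for palbociclib (green), BSJ-03-123 (blue) and YKL-06-102 (red), with 95% intervals; filled points were called and open points were not. NUPR1 with YKL-06-102 (1.46) is shown as a description, since it passed the filter only through its YKL-06-102 libraries. The largest values of the other members are those of CTH with YKL-06-102 (1.53) and DDIT4 with palbociclib (0.83). In each colour 12 of 14 synthetases are open points.

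Of the transcription regulators, ATF4 and its partner CEBPG fell slightly with each compound. ATF4 (ENSG00000128272, GRCh38 chromosome 22, 39519695 to 39522685) was at 168, 173.5 and 163 CPM in DMSO, at 155, 157 and 152 with palbociclib, at 156, 156 and 157.5 with BSJ-03-123, and at 153, 154 and 154 with YKL-06-102. All 9 treated libraries lay under the 3 DMSO libraries. The log2 fold changes were -0.12 ± 0.031 (SE; adjusted p = 0.00332), -0.11 ± 0.032 (adjusted p = 0.0122) and -0.13 ± 0.031 (adjusted p = 0.00126), or changes of -8.09%, -7.06% and -8.75%. In bulk RNA a lower level in every cell and fewer cells with the transcript cannot be told apart. Scaled by library totals alone, the ATF4 call was lost for palbociclib (-0.074, adjusted p = 0.0578) and BSJ-03-123 (-0.062, adjusted p = 0.129), and without the filter on low counts for BSJ-03-123 (adjusted p = 0.0962). CEBPG, a C/EBP protein that forms dimers with ATF4, had 142, 131 and 138 CPM in DMSO. It had 122, 128 and 120.2 with palbociclib, 125, 122 and 119.5 with BSJ-03-123, and 119, 121 and 115 with YKL-06-102. No treated library reached the lowest DMSO library, and the log2 fold changes were -0.15 ± 0.036, -0.16 ± 0.037 and -0.21 ± 0.036 (adjusted p = 0.00247, 0.00117 and 3.81e-05).

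NUPR1, a small stress-induced chromatin regulator, was near the detection floor except with YKL-06-102. Its level was 0.366, 0.323 and 0.217 CPM in DMSO, 0.244, 0.221 and 0.386 with palbociclib, and 0.301, 0.287 and 0.236 with BSJ-03-123. With YKL-06-102 it was 1.11, 0.896 and 0.535 CPM, from 13 to 27 counts per library against 4 to 8 in DMSO. All 3 YKL-06-102 libraries lay above the 9 others. Since the filter kept NUPR1 for these 3 libraries alone, its log2 fold change of 1.46 ± 0.36 is a description, with no test. DDIT3, which encodes the stress factor CHOP, was not called with any compound, at 10.7 to 11.7 CPM in DMSO and 11.1 to 13.3 CPM over the treated libraries. It overlaps MARS on the other strand over 355 exonic bases, and since the strand setting of the counting is not given, its counts are uncertain. ATF5, a related factor that is also translated under stress, overlaps the more abundant NUP62 (626 bases) and is uncertain likewise. It was not called against DMSO, with log2 fold changes of 0.0083 ± 0.038, 0.057 ± 0.038 and -0.069 ± 0.038. ATF5 was called higher with BSJ-03-123 without DMSO replicate 2 (0.12, adjusted p = 0.00388) and with library totals (0.10, adjusted p = 0.0344), and lower with YKL-06-102 without DMSO replicate 1 (-0.11, adjusted p = 0.0435).

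**Figure D3:**
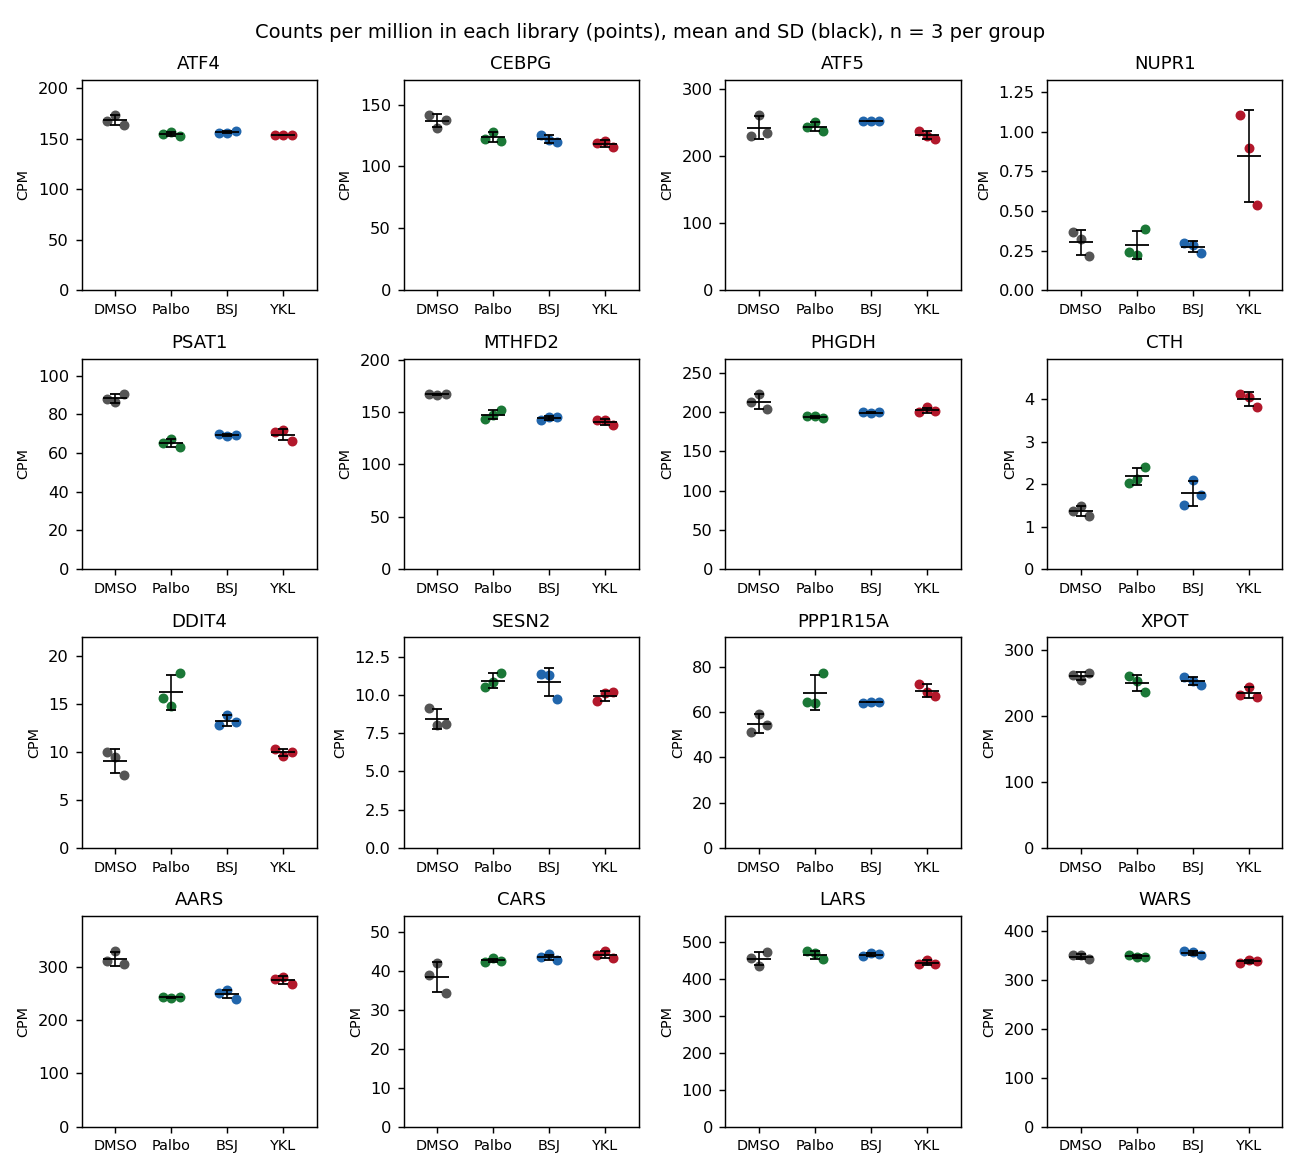
CPM in each library (points, replicates 1 to 3 from left to right) with mean and SD (black) for 16 members in DMSO, palbociclib (Palbo), BSJ-03-123 (BSJ) and YKL-06-102 (YKL); every axis starts at 0. PSAT1 and AARS stand apart from DMSO with all compounds, DDIT4 with palbociclib and BSJ-03-123, CTH most with YKL-06-102, and the synthetases LARS and WARS stay within a narrow range.

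The effectors that changed all rose, and DDIT4 separated the compounds. DDIT4 (ENSG00000168209, GRCh38 chromosome 10, 72273920 to 72276036), whose product REDD1 restrains mTORC1, was at 10.0, 9.52 and 7.65 CPM in DMSO. It was at 15.7, 14.8 and 18.3 CPM with palbociclib and at 12.8, 13.9 and 13.2 CPM with BSJ-03-123. With YKL-06-102 it was at 10.4, 9.60 and 10.0 CPM, overlapping the DMSO libraries. The log2 fold changes were 0.83 ± 0.090 with palbociclib (1.78-fold, adjusted p = 1.99e-08) and 0.54 ± 0.095 with BSJ-03-123 (1.46-fold, adjusted p = 5.24e-05). That with YKL-06-102 was 0.13 ± 0.097 (adjusted p = 0.304, 95% interval -0.065 to 0.33).

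SESN2, a leucine-binding restraint on mTORC1, had 9.16, 8.03 and 8.09 CPM in DMSO and 10.5, 10.8 and 11.5 CPM with palbociclib. It had 11.4, 11.3 and 9.76 CPM with BSJ-03-123 and 9.58, 10.1 and 10.2 CPM with YKL-06-102. Each treated library was above the highest DMSO library, though for YKL-06-102 by little. SESN2 rose by log2 fold changes of 0.38 ± 0.087, 0.36 ± 0.088 and 0.24 ± 0.087 (adjusted p = 0.00108, 0.00216 and 0.0278). The YKL-06-102 call was lost in DESeq2 (adjusted p = 0.0827) and without DMSO replicate 2 or 3 or YKL-06-102 replicate 2 or 3 (adjusted p = 0.0718, 0.0845, 0.0524 and 0.0599). PPP1R15A, also called GADD34, directs a phosphatase to eIF2 and so ends the translational block. It was at 51.0, 59.3 and 54.3 CPM in DMSO, 64.3, 64.2 and 77.5 with palbociclib, 64.2, 64.5 and 64.7 with BSJ-03-123, and 72.6, 68.95 and 66.9 with YKL-06-102. No treated library overlapped DMSO, and it rose by 0.32 ± 0.059, 0.23 ± 0.060 and 0.34 ± 0.058 on the log2 scale (adjusted p = 0.000102, 0.00427 and 3.18e-05).

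The other effectors were not called against DMSO. TRIB3, a pseudokinase that binds and restrains ATF4, lay between 15.1 and 17.5 CPM in all 12 libraries, and its 95% intervals reached at most 0.20 on the log2 scale in any comparison with DMSO. CHAC1, which degrades glutathione, ran from 0.752 to 1.30 CPM over all libraries and its log2 fold changes were -0.046 ± 0.25, -0.14 ± 0.26 and -0.15 ± 0.25. At 15 to 30 counts per library, changes of CHAC1 up to 1.58-fold with YKL-06-102 lay within the interval, so this depth leaves it poorly resolved. ADM2, a secreted peptide of the calcitonin family, had log2 fold changes of 0.33 ± 0.18, 0.35 ± 0.19 and -0.022 ± 0.19 (adjusted p = 0.181, 0.167 and 0.942).

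Among the 10 enzymes, PSAT1 and MTHFD2 fell with each compound, PHGDH and SHMT2 fell with palbociclib and BSJ-03-123, and ASNS fell with palbociclib. CTH rose with palbociclib and YKL-06-102, and PSPH, ALDH1L2, PYCR1 and CBS were not called with any compound. PSAT1 (ENSG00000135069, GRCh38 chromosome 9, 78297143 to 78330093), the aminotransferase of serine synthesis, was at 88.0, 86.1 and 90.6 CPM in DMSO. It was at 65.4, 67.1 and 63.1 CPM with palbociclib, 69.6, 68.5 and 69.4 CPM with BSJ-03-123, and 70.6, 71.6 and 66.3 CPM with YKL-06-102. The 9 treated libraries were all well under DMSO, and PSAT1 changed by -26.0%, -21.5% and -21.2%. The log2 fold changes were -0.43 ± 0.040, -0.35 ± 0.040 and -0.34 ± 0.039 (adjusted p = 6.68e-10, 5.68e-08 and 4.04e-08).

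PHGDH, which starts serine synthesis, fell less. It was at 212.5, 224 and 205 CPM in DMSO, 195, 195 and 192 with palbociclib, 200.2, 199 and 199.9 with BSJ-03-123, and 200.3, 206 and 202 with YKL-06-102. Palbociclib and BSJ-03-123 libraries lay under all DMSO libraries, and YKL-06-102 libraries overlapped them. The log2 fold changes were -0.14 ± 0.032 (adjusted p = 0.00124), -0.10 ± 0.033 (adjusted p = 0.0217) and -0.077 ± 0.032 (adjusted p = 0.0622). The BSJ-03-123 call of PHGDH was lost without the filter (adjusted p = 0.11), with library totals (adjusted p = 0.182), with the 2 compared groups alone (adjusted p = 0.0702), without DMSO replicate 2 (adjusted p = 0.108) and without BSJ-03-123 replicate 2 (adjusted p = 0.0508). Without DMSO replicate 3, PHGDH was called lower with YKL-06-102 (adjusted p = 0.0112). PSPH, the phosphatase that completes serine synthesis, was not called and ran from 10.4 to 12.5 CPM over all libraries.

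SHMT2 and MTHFD2 pass one-carbon units from serine into the mitochondrial folate pool. SHMT2 was at 269, 285 and 249 CPM in DMSO, 229.8, 237 and 239 with palbociclib, 245, 244 and 243 with BSJ-03-123, and 254, 255 and 259 with YKL-06-102. YKL-06-102 libraries fell within the wide DMSO range. Its log2 fold changes were -0.19 ± 0.036 (adjusted p = 0.000146), -0.13 ± 0.036 (adjusted p = 0.00607) and -0.067 ± 0.036 (adjusted p = 0.153), the last called only without DMSO replicate 3 (-0.12, adjusted p = 0.00589). MTHFD2 had a narrow DMSO range of 166 to 167 CPM, and 144, 147 and 152 with palbociclib, 142, 145 and 145 with BSJ-03-123, and 142, 142 and 138 with YKL-06-102. It changed by -11.6%, -13.6% and -15.8%, with log2 fold changes of -0.18 ± 0.032, -0.21 ± 0.032 and -0.25 ± 0.032 (adjusted p = 6.12e-05, 7.49e-06 and 3.01e-07). ALDH1L2, the mitochondrial formyltetrahydrofolate dehydrogenase, and PYCR1, of proline synthesis, were not called, with log2 fold changes between -0.064 and 0.075. With library totals ALDH1L2 was called higher with BSJ-03-123 (0.12, adjusted p = 0.0423). ALDH1L2 overlaps C12orf45 on the other strand over 145 exonic bases, so its counts are uncertain as well.

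ASNS, asparagine synthetase and a classical ATF4 target, was at 103.5, 97.4 and 100.5 CPM in DMSO and at 89.6, 91.5 and 93.5 CPM with palbociclib. It was at 98.9, 92.0 and 99.4 CPM with BSJ-03-123 and at 93.2, 96.3 and 95.8 CPM with YKL-06-102. Palbociclib and YKL-06-102 libraries lay under DMSO, and BSJ-03-123 libraries overlapped it. ASNS fell with palbociclib (log2 fold change -0.13 ± 0.038, adjusted p = 0.00726), a call lost with library totals (-0.086, adjusted p = 0.0797). With BSJ-03-123 and YKL-06-102 its values were -0.053 ± 0.038 and -0.077 ± 0.038 (adjusted p = 0.334 and 0.113).

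CTH (ENSG00000116761, GRCh38 chromosome 1, 70411218 to 70439851), the cystathionine lyase that yields cysteine, moved most of the enzymes. It was at 1.36, 1.49 and 1.25 CPM in DMSO, 2.03, 2.12 and 2.41 with palbociclib, and 1.50, 2.11 and 1.75 with BSJ-03-123. With YKL-06-102 it was at 4.14, 4.05 and 3.83 CPM, from 93 to 101 counts per library, above all 9 other libraries. CTH rose 1.58-fold with palbociclib (log2 fold change 0.66 ± 0.18, adjusted p = 0.00679) and 2.90-fold with YKL-06-102 (1.53 ± 0.16, adjusted p = 1.02e-08). With BSJ-03-123 the value was 0.37 ± 0.20 (adjusted p = 0.169), although its libraries did not overlap DMSO. CBS, the enzyme before CTH in transsulfuration, had 7 to 24 counts per library and was not called. CBS has a near-identical copy in the annotation, so its counts are uncertain too.

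The synthetases stayed close to their DMSO level except AARS and CARS, which moved in opposite directions. In each comparison with DMSO 1 of the 14 rose, 1 fell and 12 were not called. That is 14.3% called, where 33.3%, 28.1% and 36.9% of all genes were called with palbociclib, BSJ-03-123 and YKL-06-102. The widest 95% bound among the uncalled was 1.11-fold for palbociclib, 1.10-fold for BSJ-03-123 and 1.10-fold for YKL-06-102. AARS (ENSG00000090861, GRCh38 chromosome 16, 70252295 to 70289543), the alanyl-tRNA synthetase, was at 311, 329 and 304 CPM in DMSO. It was at 244, 241 and 242.5 CPM with palbociclib, 250.3, 256 and 240.4 CPM with BSJ-03-123, and 278, 281 and 267 CPM with YKL-06-102. All treated libraries lay under DMSO, and those of YKL-06-102 lay between DMSO and the other compounds. AARS changed by -23.0%, -21.0% and -12.6%, with log2 fold changes of -0.38 ± 0.033, -0.34 ± 0.033 and -0.19 ± 0.033 (adjusted p = 3.49e-10, 3.74e-09 and 2.52e-05). Of the 10 members with a TGATGNAA match, AARS and CEBPG fell with each compound, and a link between match and change was not tested.

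CARS, the cysteinyl-tRNA synthetase, was at 38.8, 42.1 and 34.4 CPM in DMSO, 42.3, 43.15 and 42.6 with palbociclib, 43.4, 44.2 and 42.7 with BSJ-03-123, and 44.1, 44.97 and 43.2 with YKL-06-102. Treated libraries were tight and sat just above the highest DMSO library, replicate 2, while DMSO replicate 3 was far lower. The log2 fold changes were 0.14 ± 0.054, 0.17 ± 0.054 and 0.19 ± 0.053 (adjusted p = 0.04, 0.0186 and 0.00511). Without DMSO replicate 3 they were 0.068, 0.093 and 0.12, and none was called (adjusted p = 0.343, 0.196 and 0.0682). The palbociclib call was also lost in DESeq2 (adjusted p = 0.0722), with the 2 compared groups alone (adjusted p = 0.102), without DMSO replicate 1 (adjusted p = 0.0865) and without palbociclib replicate 1, 2 or 3 (adjusted p = 0.08, 0.123 and 0.0786). The BSJ-03-123 call was lost with the 2 compared groups alone (adjusted p = 0.0588), without DMSO replicate 1 (adjusted p = 0.05) and without BSJ-03-123 replicate 1 or 2 (adjusted p = 0.0508 and 0.0829).

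Among the 12 uncalled synthetases, log2 fold changes ran from -0.072 for GARS to 0.069 for SARS with palbociclib. GARS, the glycyl-tRNA synthetase, had values of -0.072 ± 0.033, -0.070 ± 0.033 and 0.0022 ± 0.032. IARS, for isoleucine, had -0.044 ± 0.030, -0.032 ± 0.030 and -0.071 ± 0.030, the last called in limma-voom (adjusted p = 0.0438). Neither was called by edgeR, and both carry a match upstream of the start. LARS, the leucine sensor and synthetase, was at 457, 436 and 472 CPM in DMSO and between 440 and 475 CPM over the treated libraries. EPRS, WARS, YARS, TARS, MARS, HARS and NARS had absolute log2 fold changes of at most 0.063 against DMSO with any compound. SARS and VARS, for serine and valine, were called higher once DMSO replicate 2 was left out, with palbociclib (0.099 and 0.082, adjusted p = 0.0439 and 0.0426) and with YKL-06-102 (0.12 and 0.11, adjusted p = 0.0134 and 0.005). With library totals SARS and VARS were also called higher with palbociclib (adjusted p = 0.015 and 0.0295) and YKL-06-102 (adjusted p = 0.0337 and 0.0412), as were LARS with palbociclib (adjusted p = 0.0384), WARS with BSJ-03-123 (adjusted p = 0.0426) and HARS with YKL-06-102 (adjusted p = 0.0291). HARS overlaps HARS2 and WDR55 on the other strand, and MARS overlaps ARHGAP9, so their counts may hold reads of those genes or lack reads of the overlap.

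XPOT, which exports mature tRNA from the nucleus, was at 262, 254 and 266 CPM in DMSO, 260.3, 253 and 236 with palbociclib, and 258, 253 and 246 with BSJ-03-123. With YKL-06-102 it was at 232, 244 and 229 CPM, under all DMSO libraries. XPOT fell with YKL-06-102 (-0.15 ± 0.036, adjusted p = 0.00125), and its values with palbociclib and BSJ-03-123 were -0.059 ± 0.036 and -0.045 ± 0.036 (adjusted p = 0.214 and 0.378).

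The compounds were then compared directly at the same dose and time. Libraries did not overlap for 15.2% of all tested genes between BSJ-03-123 and palbociclib. The share was 41% between YKL-06-102 and palbociclib and 35.6% between the conjugates. No member was called between BSJ-03-123 and palbociclib by edgeR, DESeq2 or limma-voom, where 0.155% of all tested genes were called by edgeR, all higher with BSJ-03-123. At an unadjusted p under 0.05 the count was 4 of 36 members and 8.43% of all genes. DDIT4 had the smallest of these p-values: it was lower with BSJ-03-123 in every library, by a log2 difference of -0.29 ± 0.084 (unadjusted p = 0.00198, adjusted p = 0.217, 95% interval -0.46 to -0.12). ALDH1L2, ASNS and PSAT1 were the others, with differences of 0.11 ± 0.044, 0.081 ± 0.038 and 0.084 ± 0.041. For the synthetases the widest 95% bound of the difference was 1.10-fold. For CTH the interval was -0.64 to 0.076, so a difference of CTH was not resolved.

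Against palbociclib, CTH, AARS and SHMT2 were higher and DDIT4 was lower with YKL-06-102, which is 4 of the 35 members tested without NUPR1 (11.4%), where 24.7% of all genes were called, 12.7% higher and 11.9% lower. NUPR1, kept by the filter for its YKL-06-102 libraries alone, had a log2 difference of 1.58 ± 0.36, given as a description. CTH was 1.84-fold higher (log2 difference 0.88 ± 0.14, adjusted p = 2.63e-05), with no overlap of libraries. AARS was higher by 0.18 ± 0.033 (adjusted p = 0.000106) and SHMT2 by 0.12 ± 0.036 (adjusted p = 0.0125). DDIT4 was the gene that was lower, by a log2 difference of -0.70 ± 0.086 (adjusted p = 3.02e-07), with no overlap of libraries. With only those 2 groups in the fit, 6 of the 35 were higher and 5 lower (31.4%), where 30.8% of all genes tested in that fit were called. The added calls were PSAT1, PHGDH and GARS higher (adjusted p = 0.0469, 0.0359 and 0.0177) and ATF5, XPOT, LARS and NARS lower (adjusted p = 0.0369, 0.0262, 0.0382 and 0.0401). Library totals also added XPOT and NARS (adjusted p = 0.0369 and 0.0421). Leaving out 1 library added PSAT1 (adjusted p = 0.0151 without YKL-06-102 replicate 3, 0.0365 without palbociclib replicate 2), GARS (adjusted p = 0.0361 and 0.0365) and XPOT (adjusted p = 0.0129 without palbociclib replicate 3).

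Between the conjugates 3 members were higher and 2 lower with BSJ-03-123 than with YKL-06-102, of the 35 tested without NUPR1 (14.3%), where 20.1% of all genes were called, 9.74% higher and 10.4% lower. DDIT4 was higher with BSJ-03-123 by 0.41 ± 0.090 (adjusted p = 0.00124). CTH was lower (-1.16 ± 0.15, adjusted p = 1.39e-06), as was AARS (-0.15 ± 0.033, adjusted p = 0.00184). NUPR1 had a log2 difference of -1.61 ± 0.37, again a description. ATF5 and XPOT were slightly higher (0.13 ± 0.038 and 0.10 ± 0.036, adjusted p = 0.0168 and 0.037). Both of these small differences were fragile. The ATF5 call was lost without any one of the 6 libraries (adjusted p from 0.0525 without BSJ-03-123 replicate 3 to 0.21 without YKL-06-102 replicate 3). The XPOT call was lost without BSJ-03-123 replicate 1 or 2 (adjusted p = 0.303 and 0.126) or YKL-06-102 replicate 1, 2 or 3 (adjusted p = 0.276, 0.0579 and 0.348), in DESeq2 (adjusted p = 0.0778), with DESeq2's size factors (adjusted p = 0.0629) and without the filter (adjusted p = 0.118). HARS and GARS were called lower with BSJ-03-123 when 1 library was left out: HARS without YKL-06-102 replicate 2 or 3 (adjusted p = 0.0179 and 0.043) and GARS without BSJ-03-123 replicate 1 or YKL-06-102 replicate 3 (adjusted p = 0.0272 and 0.0482). HARS was also called with DESeq2's size factors and with those 2 groups alone (adjusted p = 0.035 and 0.0279), PPP1R15A was called lower with those 2 groups alone (adjusted p = 0.0319), and WARS was called higher with library totals (adjusted p = 0.0436). The widest 95% bound among the 13 uncalled synthetases was 1.12-fold.

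**Figure D4:**
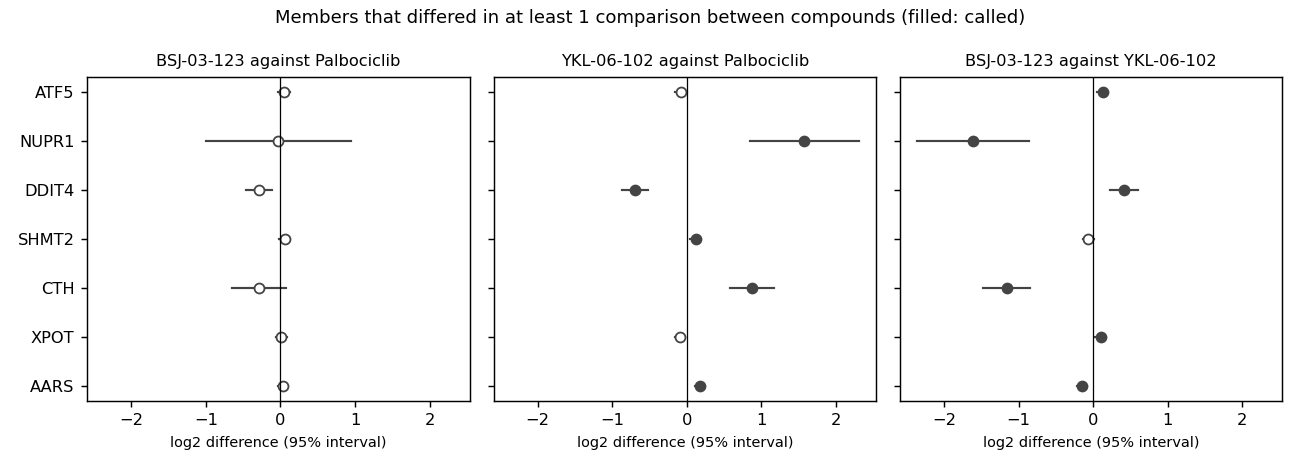
Log2 differences between compounds, with 95% intervals, for the 7 members called in at least 1 of the 3 direct comparisons; filled points were called and open points were not. NUPR1 is shown as a description, since it passed the filter only through its YKL-06-102 libraries. CTH and NUPR1 sit to the right for YKL-06-102 against palbociclib (0.88 and 1.58) and to the left for BSJ-03-123 against YKL-06-102, DDIT4 does the reverse, and every point of BSJ-03-123 against palbociclib is open.

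Related genes outside the members were read from 7 lists, whose counts stand against the 33.3%, 28.1% and 36.9% of all genes called with palbociclib, BSJ-03-123 and YKL-06-102. Of 10 tested amino acid transporters, 1 rose and 6 fell with palbociclib, 1 and 5 with BSJ-03-123, and 1 and 7 with YKL-06-102. The share lower was 60%, 50% and 70%, against 17.6%, 15.7% and 21.3% of all genes, and the medians were -0.18, -0.12 and -0.15. The glutamine transporter SLC1A5 fell with each (-0.46 ± 0.040, -0.41 ± 0.040 and -0.26 ± 0.039), as did the arginine and lysine transporter SLC7A1 (-0.31 ± 0.038, -0.22 ± 0.038 and -0.22 ± 0.038). The cystine transporter SLC7A11 rose with palbociclib and BSJ-03-123 (0.42 ± 0.096 and 0.42 ± 0.097). SLC38A1, another glutamine carrier, rose with YKL-06-102 (0.44 ± 0.051) and fell with palbociclib (-0.15 ± 0.055).

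Of 15 genes of eIF2 kinases and eIF2 machinery, 2 rose and 2 fell with palbociclib and 2 and 3 with BSJ-03-123, and 5 fell with YKL-06-102 with the other 10 not called. These shares of 26.7%, 33.3% and 33.3% called in either direction lay near those of all genes. With YKL-06-102 the calls were all lower: 33.3% lower and 0% higher, against 21.3% and 15.6% of all genes. EIF2S1, the eIF2 subunit that is phosphorylated, fell with each (-0.19 ± 0.031, -0.17 ± 0.032 and -0.23 ± 0.031). EIF2AK4, the amino acid sensor GCN2, rose with palbociclib and BSJ-03-123 (0.12 ± 0.043 and 0.15 ± 0.043), and EIF2AK3, the endoplasmic reticulum sensor PERK, fell with BSJ-03-123 and YKL-06-102 (-0.21 ± 0.065 and -0.16 ± 0.063). Of 18 genes of the ATF6 and XBP1 branch, which answers unfolded protein in the endoplasmic reticulum, 6 rose and 4 fell with palbociclib, 7 and 2 with BSJ-03-123, and 3 and 5 with YKL-06-102 (55.6%, 50% and 44.4% called, against the same 33.3%, 28.1% and 36.9%). HERPUD1, of endoplasmic reticulum degradation, rose with each (0.23 ± 0.038, 0.27 ± 0.038 and 0.48 ± 0.037), and the chaperone subunit SDF2L1 fell (-0.35 ± 0.044, -0.23 ± 0.044 and -0.30 ± 0.043). ERN1, which encodes the sensor IRE1, rose with palbociclib (0.16 ± 0.044) and fell with YKL-06-102 (-0.18 ± 0.045).

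Of 19 further reported ATF4 targets tested, 2 rose and 7 fell with palbociclib, 2 and 5 with BSJ-03-123, and 3 and 7 with YKL-06-102. That is 47.4%, 36.8% and 52.6% called, where 33.3%, 28.1% and 36.9% of all genes were. GPT2, the mitochondrial alanine aminotransferase, fell with each (-0.35 ± 0.049, -0.33 ± 0.050 and -0.69 ± 0.050), as did FAM129A (-0.56 ± 0.059, -0.23 ± 0.058 and -0.39 ± 0.057). SESN3, a relative of SESN2 that is also a FOXO target, rose with each (0.35 ± 0.054, 0.50 ± 0.054 and 0.57 ± 0.053).

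Synthetases outside the members moved in both directions, where 33.3%, 28.1% and 36.9% of all genes were called. Of 9 tested cytosolic synthetase and scaffold genes, 2 rose and 2 fell with palbociclib, 2 and 1 with BSJ-03-123, and 2 and 2 with YKL-06-102 (44.4%, 33.3% and 44.4% called). The scaffold subunit gene EEF1E1 fell most (-0.29 ± 0.073, -0.33 ± 0.075 and -0.52 ± 0.074), and QARS and RARS rose with each compound by 0.13 or less. Of 17 mitochondrial synthetases, 3 rose and 3 fell with palbociclib, 2 and 2 with BSJ-03-123, and 3 and 2 with YKL-06-102 (35.3%, 23.5% and 29.4% called).

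Several cytosolic folate genes outside the members had larger decreases than SHMT2 or MTHFD2. Of 11 tested, 6 fell and 1 rose with each compound (54.5% lower, against 17.6%, 15.7% and 21.3% of all genes), with medians of -0.27, -0.18 and -0.15. Thymidylate synthase TYMS had log2 fold changes of -1.91, -1.70 and -1.32. The cytosolic counterparts of the member enzymes fell too: SHMT1 had -0.95, -0.90 and -0.68, and MTHFD1 had -0.85, -0.79 and -0.55. SHMT2 and MTHFD2 act in mitochondria, and whether the compartment has a part in the difference was not tested.

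**Figure D5:**
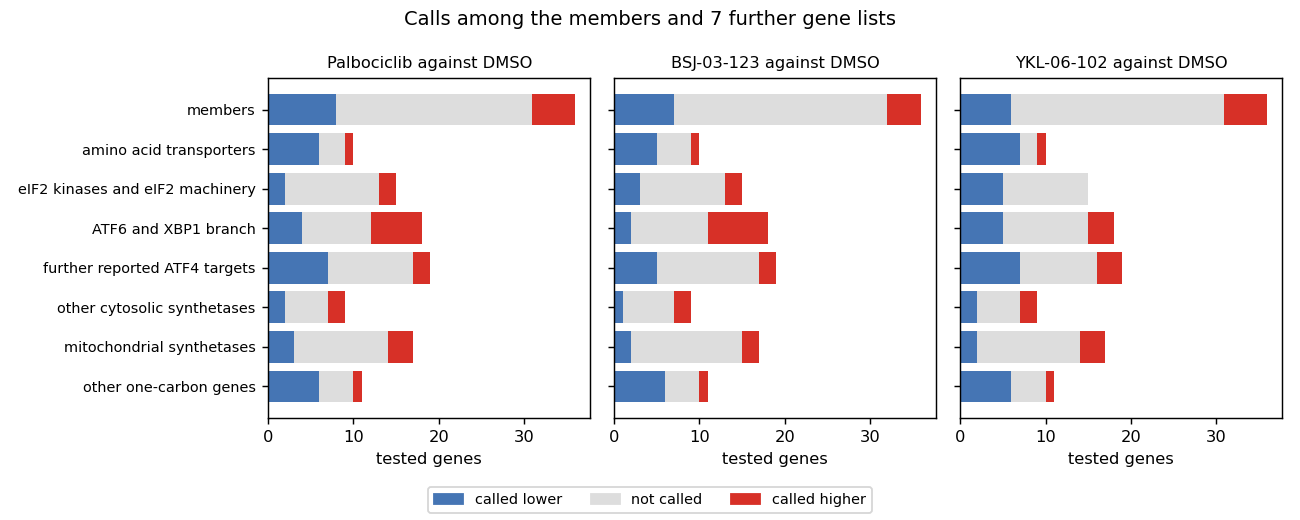
Number of tested genes called lower (blue), not called (grey) and called higher (red) against DMSO among the 36 tested members and 7 further gene lists, for each compound. Blue takes 5 to 7 of the 10 amino acid transporters and 6 of the 11 other one-carbon genes with each compound, while the members hold 4 or 5 higher (NUPR1 counted with YKL-06-102) and 6 to 8 lower.

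The 10 members with a motif match did not move together. Against DMSO, AARS and CEBPG fell with each compound, CARS rose with each before the exclusions given above, and ASNS fell with palbociclib. CHAC1, GARS, IARS, MARS, NARS and TARS were not called with any compound. PSAT1, MTHFD2, SESN2 and PPP1R15A changed with each compound and had no match in their windows, nor did DDIT4 and CTH.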

How the data were processed

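RNA of 12 MV4-11 libraries was measured, 3 for each of 4 groups. Per the labels' protocols, RNA was isolated with a QIAGEN kit and libraries were made with a TruSeq stranded mRNA kit. The deposited values are raw read counts per Ensembl gene. Per the submitters' processing notes, the authors used Trimmomatic 0.36, STAR 2.5.2b, HTSeq and the build hg38. Which annotation release and strand setting were used in the counting is not given in the sources used here.

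From these counts, CPM (counts scaled per library with TMM factors) and edgeR 4.0.16 quasi-likelihood tests (R 4.3.3) were computed over all 12 libraries with group as the only term. Genes passed filterByExpr with a minimum count of 10 and a minimum total of 15, and the 14214 that passed held 99.92% of counts. Adjustment was Benjamini-Hochberg over all tested genes of a comparison. Each SE is the absolute log2 fold change divided by the square root of the test's F statistic. The 95% intervals use this SE with edgeR's total degrees of freedom, the 8 residual ones plus prior ones drawn from all genes. The common biological coefficient of variation was 3.08%. Reads had no molecular identifiers. The SE and intervals cover counting error and the spread between libraries of a group, which may be technical. Names, coordinates and merged exon lengths came from GENCODE 29 (GRCh38). The tests were tested on simulated data.

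All members were named, with up to 4 called genes of each further list per comparison, by size of log2 fold change; some genes of the further lists are counted but not reported here by name. Lists were the amino acid transporters, eIF2 machinery, ATF6 and XBP1 branch, further ATF4 targets, other cytosolic synthetases, mitochondrial synthetases and other one-carbon genes. Members and lists were chosen with earlier results of these data known. Alternatives were DESeq2 1.42.0, limma-voom (limma 3.58.1), 2 other scalings, no filter, the compared groups alone, a replicate block and leaving out each library.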

Additional observations from a re-analysis of the deposited data

How the results depend on the processing

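Across 2793 alternative values of members, 41 lost a call, 40 gained one and 0 calls changed sign. Of 46 called values, 36 kept their call under every alternative that gave a value, and those that did not are named in the report. The 36 include all 3 values of NUPR1, which the filter kept for its YKL-06-102 libraries alone and which are a description only. DESeq2 gave no adjusted p for NUPR1 with YKL-06-102. The counts of called members stayed within 1.5 times of the reported ones, except YKL-06-102 against palbociclib with those 2 groups alone (12 against 5, or 31.4% against 11.4% of 35 members without NUPR1). Between BSJ-03-123 and palbociclib the number of all genes called was 22, and 64 without the filter, 43 in DESeq2, 75 with the 2 groups alone and from 3 to 14 with 1 library left out. The cause was not tested. With library totals, the share of higher calls over all genes was 63.5% in place of 47.0% for palbociclib, 61.8% in place of 44.1% for BSJ-03-123 and 54.3% in place of 42.2% for YKL-06-102. The counts of the further lists stayed within 1.5 times without DMSO replicate 2, an alternative chosen after seeing the data.

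Same-numbered libraries of different groups deviated together in 2 of 18 pairs (r over 0.1; range -0.162 to 0.229), so the numbers were not taken as a pairing. With the replicate block the members called were 13, 11, 11, 0, 5 and 6 in the 6 comparisons, as without it. Depth limits NUPR1, CBS, CHAC1, ADM2 and STC2 most.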

Other observations

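Between compounds, related genes outside the members differed at the same dose and time, with edgeR's adjusted p under 0.05. SLC38A1, a glutamine carrier, was higher with YKL-06-102 than with palbociclib (log2 difference 0.59 ± 0.052) and lower with BSJ-03-123 than with YKL-06-102 (-0.44 ± 0.051). ERN1, which encodes the endoplasmic reticulum sensor IRE1, was lower with YKL-06-102 than with palbociclib (-0.34 ± 0.044), and HERPUD1 was higher (0.25 ± 0.036). Of the further ATF4 targets, EIF4EBP1, a repressor of cap-dependent translation, was higher with YKL-06-102 than with palbociclib (0.36 ± 0.054), while KLHL24 and GPT2 were lower (-0.35 ± 0.061 and -0.34 ± 0.051). Of the 11 tested one-carbon genes outside the members, 6 were higher and 2 lower with YKL-06-102 than with palbociclib, where 24.7% of all genes were called. TYMS, MTHFD1 and SHMT1 were among the higher ones (0.60 ± 0.036, 0.30 ± 0.034 and 0.28 ± 0.077).

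BSJ-03-123 and palbociclib differed in 2 genes of the further lists. FAM129A and TYMS were higher with BSJ-03-123 (0.34 ± 0.061, adjusted p = 0.0123, and 0.21 ± 0.038, adjusted p = 0.0121).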
